A study of Bos taurus with 5 samples.

Results

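The genes examined encode the proteins of the mitochondrial ribosome. Members were all entries of the expression table whose symbol starts with MRPL or MRPS followed by a digit, and 76 of the 27607 genes in the table met this rule, 47 with an MRPL and 29 with an MRPS symbol. The rule uses names only and no measured value. No symbol occurred more than once among the members.

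The data are 5 cattle (Bos taurus) RNA sequencing libraries labelled by tissue as brain, skin, lung, heart or limb. Each label had 1 library, made from lysed cells whose RNA was pre-amplified by the C1-HT IFC protocol, a microfluidic method. The labels give no strain, genotype, treatment, age, animal or number of cells. Without replicates, every difference below describes single libraries and carries no error and no p-value. Values were taken as FPKM, a level that counts fragments relative to the length of the transcript and to the size of the library.

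The mitochondrial ribosome stands in the mitochondrial matrix and translates the few messenger RNAs that the mitochondrial genome encodes, all of them for subunits of the respiratory chain and the ATP synthase. Its RNA comes from mitochondrial DNA, while its proteins are encoded in the nucleus, made in the cytosol and imported. The small subunit binds the messenger RNA and decodes it, and the large subunit joins amino acids into a chain that leaves through an exit tunnel facing the inner membrane. Some of its proteins descend from those of bacterial ribosomes, and others exist only in mitochondria.

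The labelled tissues were checked against short lists of their defining markers, and these were nearly absent. The brain-labelled library had 0 of 10 neuron entries above 0, the skin-labelled library 1 of 9 keratinocyte entries (KRT10), the lung-labelled library 1 of 10 alveolar entries (PDPN), the heart-labelled library 1 of 10 cardiomyocyte entries (ACTC1) and the limb-labelled library 2 of 10 skeletal muscle entries (ACTA1 and TNNT1). Some of these markers were higher under other labels. ACTC1 stood at 231 FPKM under limb and 57.7 FPKM under brain, beside 5.21 FPKM under heart. SFTPC, an alveolar entry, was above 0 only under limb, and KRT5 (keratinocyte) and GAD2 (neuron) only under lung. Of 9 fibroblast entries 4 or 5 were above 0 in each library, with VIM at 1011 to 2251 FPKM. The libraries are therefore named by label only. Each library summed to between 1072430 and 1172798 FPKM, and between 5109 genes (skin label) and 6634 genes (heart label) were above 0. Fewer expressing cells and less RNA per cell cannot be told apart in such values.

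Each of the 76 genes was detected somewhere, 59 of them in every library. They filled 357 of 380 possible values, so 23 values were listed at 0. The brain- and lung-labelled libraries each had 1 member at 0, the heart-labelled library 3, the skin-labelled library 8 and the limb-labelled library 10. The skin- and limb-labelled libraries also had the fewest genes above 0 over the whole table. With a minimum of 10 FPKM in every library, 52 members remained.

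**Figure D1:**
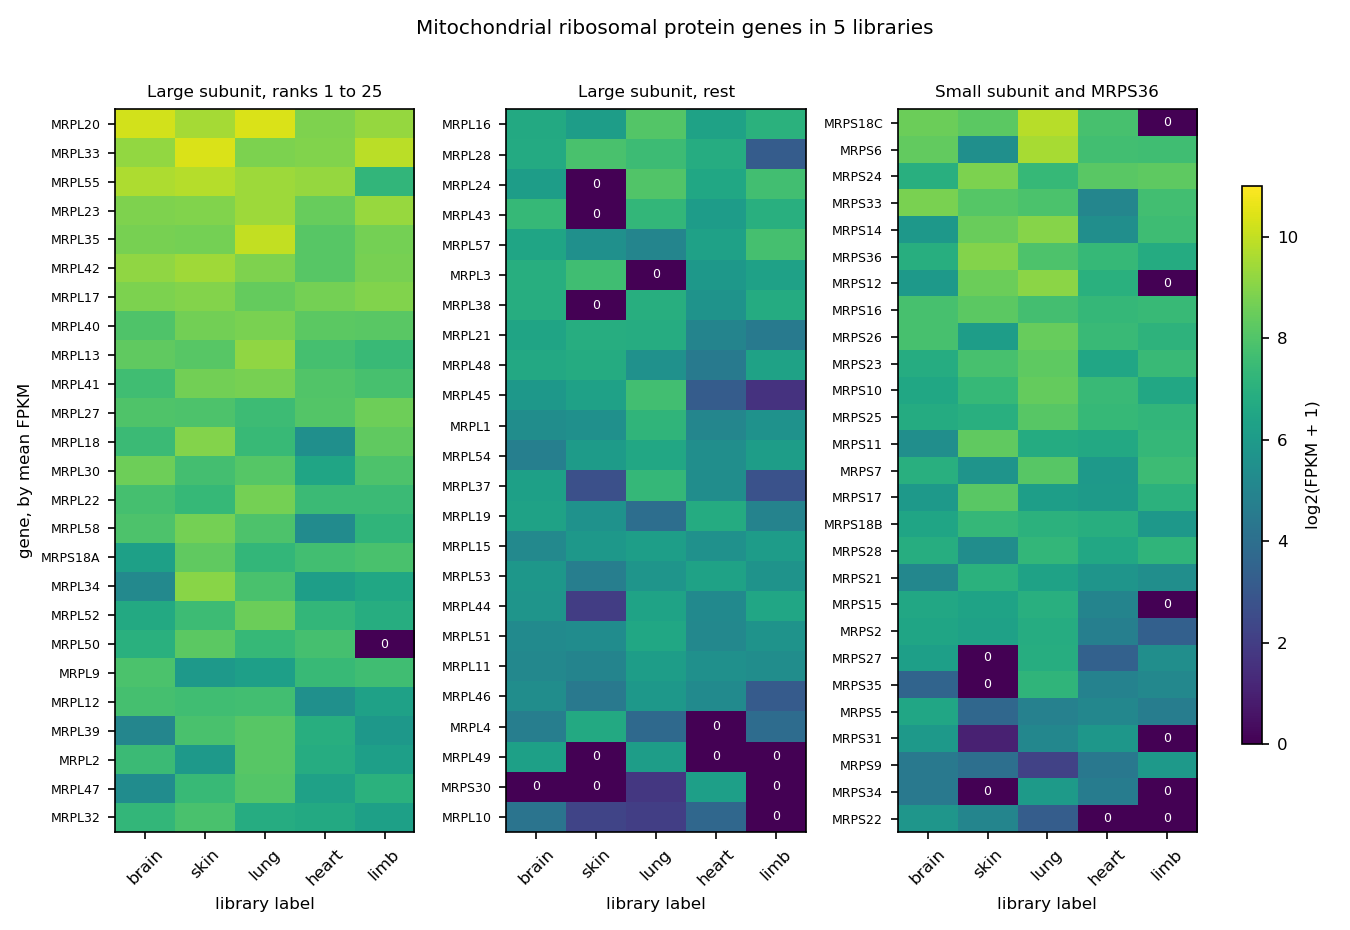
Levels of the 76 mitochondrial ribosomal protein genes, as log2(FPKM + 1) on a colour scale, with 1 row per gene ordered by mean FPKM and 1 column per library. Left and middle panels hold the 49 large subunit genes and the right panel the 26 small subunit genes with MRPS36. The digit 0 marks the 23 values listed at 0, of which 10 are in the limb-labelled and 8 in the skin-labelled library.

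Members were next divided by where their products sit in the assembled ribosome, from general knowledge of its structure. The large subunit held 49 members, which included MRPS30 and MRPS18A in spite of their names. The small subunit held 26. MRPS36 was left in neither class, since its product is now counted as a subunit of the 2-oxoglutarate dehydrogenase complex. It stood at 119 FPKM under the brain label, 496 under skin, 241 under lung, 163 under heart and 108 under limb.

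Summed over the 76 members, the level was 12572 FPKM under the brain label, 15556 under skin, 18383 under lung, 9263 under heart and 10724 under limb. The lung-labelled sum was thus the highest and the heart-labelled sum the lowest, 1.98-fold apart. As a share of all FPKM this was 1.57% in the lung-labelled and 0.84% in the heart-labelled library, with 1.33%, 1.17% and 0.95% for the skin, brain and limb labels. The order did not rest on the most abundant genes: without the 5 members of highest mean the lung-labelled sum was 14226 FPKM and the heart-labelled sum 7087 FPKM.

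Some gene groups had summed levels that differed less between libraries, and others more. The summed FPKM of 83 cytosolic ribosomal protein genes differed 1.47-fold between its highest library (lung label) and its lowest (brain label). For 84 nuclear genes of the respiratory chain and ATP synthase the difference was 1.61-fold, highest under the skin label, and for the 13 mitochondrially encoded proteins, which are what the mitochondrial ribosome makes, it was 1.48-fold, also highest under the skin label. The scarcer genes that charge mitochondrial tRNAs (20 genes) differed 2.95-fold and those that copy and transcribe mitochondrial DNA (9 genes) 2.55-fold. The mitochondrially encoded proteins summed to 71025 FPKM under the skin label and 70179 under lung, beside 57745 under heart, 51924 under brain and 48121 under limb. The members' sum and that of the genes they translate therefore had the same highest pair of libraries but a different lowest one. Relative to the summed cytosolic ribosomal protein genes, the members stood at 11.1% under the skin label, 10.3% under both the brain and lung labels, 7.73% under the limb label and 7.41% under the heart label.

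**Figure D2:**
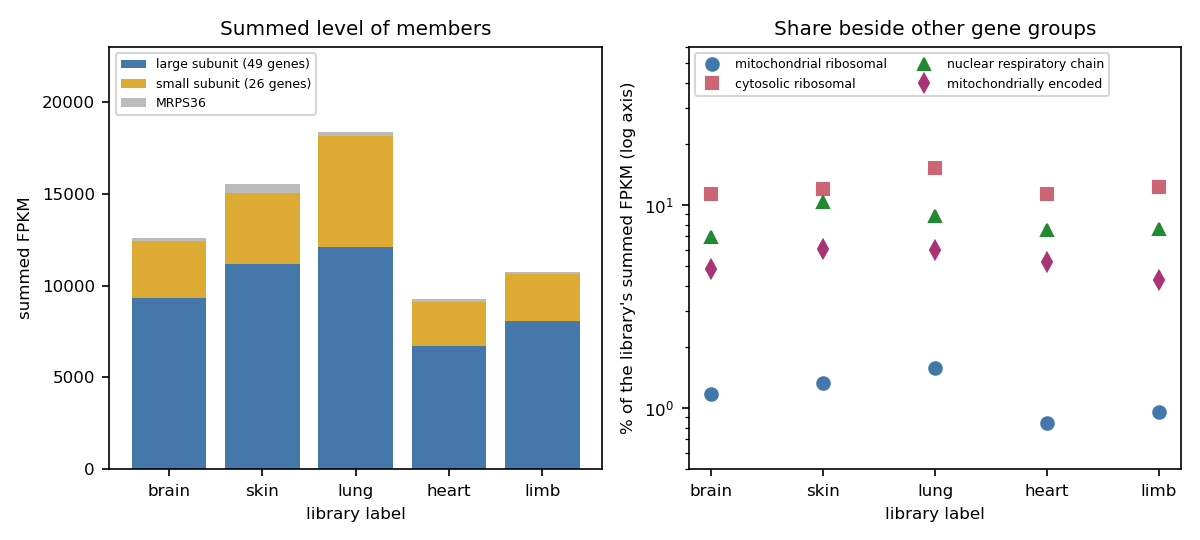
Left, summed FPKM of large subunit genes, small subunit genes and MRPS36, stacked by library label. Right, share of each library's summed FPKM, on a log axis, for mitochondrial ribosomal, cytosolic ribosomal, nuclear respiratory chain and mitochondrially encoded genes. The mitochondrial ribosomal share runs from 0.84% (heart label) to 1.57% (lung label).

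The large subunit genes summed to 9343 FPKM under the brain label, 11181 under skin, 12107 under lung, 6700 under heart and 8094 under limb. The small subunit genes summed to 3110, 3879, 6035, 2400 and 2521 FPKM in the same order of labels. The ratio of the large to the small sum was 2.01 in the lung-labelled library and between 2.79 (heart label) and 3.21 (limb label) in the other 4. The ratio was also taken without 4 small subunit genes, chosen after their values were seen because they were the highest of that subunit in the lung-labelled library: MRPS18C, MRPS6, MRPS12 and MRPS14. They made up 44.8% of the small subunit sum under the lung label and between 15.6% (limb label) and 27.7% (skin label) elsewhere. Without them the ratio was 3.64 under the lung label and between 3.71 and 4.07 elsewhere. Because they were chosen by their lung-labelled values, a larger rise there was built into the choice. The closeness of the ratios without them is therefore no separate finding. By medians over genes, the large subunit stood at 169 FPKM and the small at 150 FPKM in the lung-labelled library, a ratio of 1.13, beside ratios of 1.16 (brain label) to 1.59 (skin label) in the others.

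Genes whose proteins have a bacterial counterpart and genes whose proteins have none differed in median FPKM. The 28 large subunit genes with a bacterial counterpart had a median of their means of 144 FPKM, and the 21 found only in mitochondria 77.7 FPKM. In the small subunit the medians were 142 FPKM for 16 genes with a bacterial counterpart and 79.5 FPKM for 10 without. Here MRPS18A and MRPS18B, which are related to a bacterial protein but sit elsewhere in the ribosome, were counted as found only in mitochondria. With both moved to the other class, the medians were 146.9 FPKM against 74.3 FPKM in the large subunit and 139 FPKM against 47.6 FPKM in the small. Of the 10 small subunit genes 5 were listed at 0 in at least 1 library, against 3 of the 16. These values describe the members and were not tested. Levels were not set against transcript or protein length, so the part of length in these and other differences between genes was not tested.

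The most abundant member was MRPL20, a protein of bacterial descent that binds the large ribosomal RNA, at 1208 FPKM under the brain label, 736 under skin, 1345 under lung, 463 under heart and 618 under limb. MRPL33, a small protein near the site where tRNA leaves the ribosome, followed at 600.5, 1310, 455, 487 and 939 FPKM in the same order of labels. MRPL55, of the central protuberance (the crest of the large subunit that faces the small one), had 797, 886, 670.2, 605 and 149.8 FPKM. These 3 did not all peak in the same library: MRPL20 was highest under the lung label, MRPL33 and MRPL55 under the skin label. The next by mean were MRPL23 (520 FPKM), a protein at the mouth of the exit tunnel, MRPL35 (509 FPKM), MRPL42 (486 FPKM), MRPL17 (435 FPKM), also at the tunnel mouth, and MRPS18C (358 FPKM), the only small subunit gene among the 8 highest. At the other end, MRPL10, the base of the stalk that recruits translation factors, had a mean of 7.26 FPKM. The 8 lowest by mean also held MRPS30 (15.1 FPKM), MRPS22 (18.6 FPKM), MRPS34 (21.6 FPKM), MRPS9 (23.8 FPKM), MRPL49 (28.6 FPKM), MRPS31 (30.2 FPKM) and MRPL4 (30.4 FPKM). In an intact ribosome most of these proteins occur as single copies, while the mean FPKM spanned 7.26 to 874. The 5 most abundant members made up 25% (heart label) to 29.1% (brain label) of the summed level in each library.

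Each member was then followed across the libraries. MRPL17 had the smallest spread among the 59 genes above 0 in all 5, at 450 FPKM under the brain label, 501 under skin, 334 under lung, 416 under heart and 475 under limb. Its highest value was 1.5 times its lowest, and its standard deviation (SD) of log2(FPKM + 1) over the libraries was 0.23. MRPL40, also of the central protuberance, followed with an SD of 0.35, then MRPS16 with 0.36, MRPL27 with 0.37, MRPL23 with 0.39, MRPL15 with 0.40, MRPL11 with 0.45 and MRPL42 with 0.49. In all, 4 of the 59 genes stayed within a 2-fold range and 12 exceeded a 10-fold range.

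The widest range among genes above 0 everywhere was that of MRPL45, which links the exit tunnel to the inner membrane. It stood at 56.5 FPKM under the brain label, 77.6 under skin, 201 under lung, 8.30 under heart and 2.04 under limb, so that it was high under the lung label and low under the heart and limb labels. MRPL37 had 74.6, 5.47, 159.7, 40.5 and 5.74 FPKM in the same order, low under the skin and limb labels. MRPS14 had 56.8, 360.5, 511, 42.0 and 193 FPKM, high under the skin and lung labels. MRPL34 was highest under the skin label, at 527 FPKM, and next under lung, at 225 FPKM. It stood at 35.2, 70.1 and 91.6 FPKM under brain, heart and limb. MRPS2 ranged from 9.51 FPKM (limb label) to 113 FPKM (lung label).

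Over the 76 members the median SD was 1.02. The same median was 0.84 for the 59 members above 0 in all 5 libraries, beside 0.85 for the 2607 genes of the whole table that were above 0 in all 5. Cytosolic ribosomal protein genes had 0.37 over 80 genes and nuclear respiratory chain genes 0.44 over 76 genes. Both of these groups are more abundant, with medians of the mean of 1529 FPKM and 661 FPKM beside 135 FPKM for the members, and spread fell with level over the whole table. Among genes with a mean from 100 to 200 FPKM the median SD was 0.92 for 23 members and 0.93 for all 532 genes. From 200 to 500 FPKM it was 0.78 for 18 members and 0.69 for all 411 genes. Listing at 0 followed level too: 3 of 23 members with a mean from 100 to 200 FPKM (13.0%) and 14.8% of all genes at that level were at 0 in at least 1 library, and 17.6% of 17 members and 35.5% of all genes from 50 to 100 FPKM. From 200 to 500 FPKM the order was the other way, with 2 of 18 members (11.1%) and 6.57% of all genes. Set against genes of like level, the members had neither a uniformly larger nor a uniformly smaller spread.

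**Figure D3:**
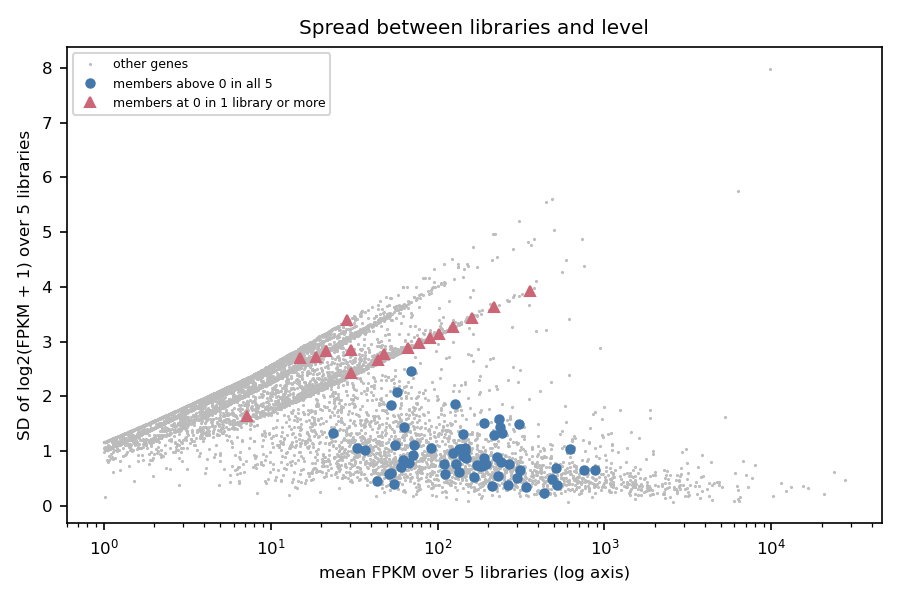
Standard deviation of log2(FPKM + 1) over the 5 libraries against mean FPKM (log axis), 1 point per gene averaging 1 FPKM or more. Blue circles are the 59 members above 0 in all libraries, red triangles the 17 listed at 0 somewhere, grey points other genes. The triangles lie on the upper bands formed by all genes with zeros.

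Each library was next set against the other 4. The difference taken for a gene was its log2(FPKM + 1) minus the mean of that value in the other 4 libraries. Its median over the members was 0.97 in the lung-labelled library, where 57 of 76 genes (75%) lay above the mean of the others. Among all 8694 genes averaging 1 FPKM or more the median was -0.16 and 47.8% lay above, and among the 2133 genes averaging 50 FPKM or more, a level more like that of the members, the median was 0.24 and 58.0% lay above. In this library 37 members (48.7%) had their highest value, beside 24.1% of all genes and 27.6% of genes at 50 FPKM or more. Cytosolic ribosomal protein genes also had most of their maxima there, 55 of 81. Some genes of a cell division list were high in the same library and under the skin label. Under the lung label UBE2C, CCNB1 and BIRC5 stood at 290.2, 284 and 102 FPKM. Under the skin label they stood at 372, 123 and 227 FPKM, and in the other 3 libraries at 0 to 1.13 FPKM. TOP2A had that pattern at 19.9 FPKM (lung label) and 26.7 FPKM (skin label). The rest of the list was less uniform. PCNA also stood at 34.8 FPKM under heart and 76.1 FPKM under limb, and TYMS at 55.3 FPKM under limb. RRM2 was at 148 FPKM under lung and 0.45 FPKM under skin. MKI67 and MCM2 stood at 3.44 FPKM or less in every library, and CDK1 at 0. Of the 10 genes on that list 9 were above 0 under the lung label, 8 under the skin label, 2 under the brain and limb labels and 1 under the heart label, with sums of 1365, 1116, 10.2, 131 and 34.8 FPKM. The list's part in the members' levels was not tested.

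In the other libraries the members' medians lay nearer to 0. Over all 76 members they were 0.27 under the brain label, 0.18 under skin, -0.15 under heart and -0.18 under limb. At like level, the 63 members averaging 50 FPKM or more had a median of 0.13 under the brain label, beside 0.19 for all genes at that level, and of 0.54 under the skin label, beside 0.14. Under the heart label the 63 had -0.24, beside -0.01, under the limb label -0.13, beside 0.05, and under the lung label 1.01, beside 0.24. The skin-labelled median thus depended on the members of low level, several of which were listed at 0 there. The heart-labelled median was 0.020 when values were rescaled by the median ratio between libraries, so it has no settled direction. The lung-labelled median stayed between 0.77 and 1.01 under the 11 alternatives tried. The heart and limb labels had few of the members' maxima, 3 (3.95%) and 4 (5.26%) of 76. The skin label had 22 (28.9%) and the brain label 10 (13.2%). Among genes at 50 FPKM or more the shares were 12.05% (heart), 17.63% (limb), 25.04% (skin) and 17.67% (brain). Among all genes they were 18.55%, 18.02%, 19.83% and 19.53% in the same order. The heart label thus also had the fewest maxima among genes at 50 FPKM or more.

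**Figure D4:**
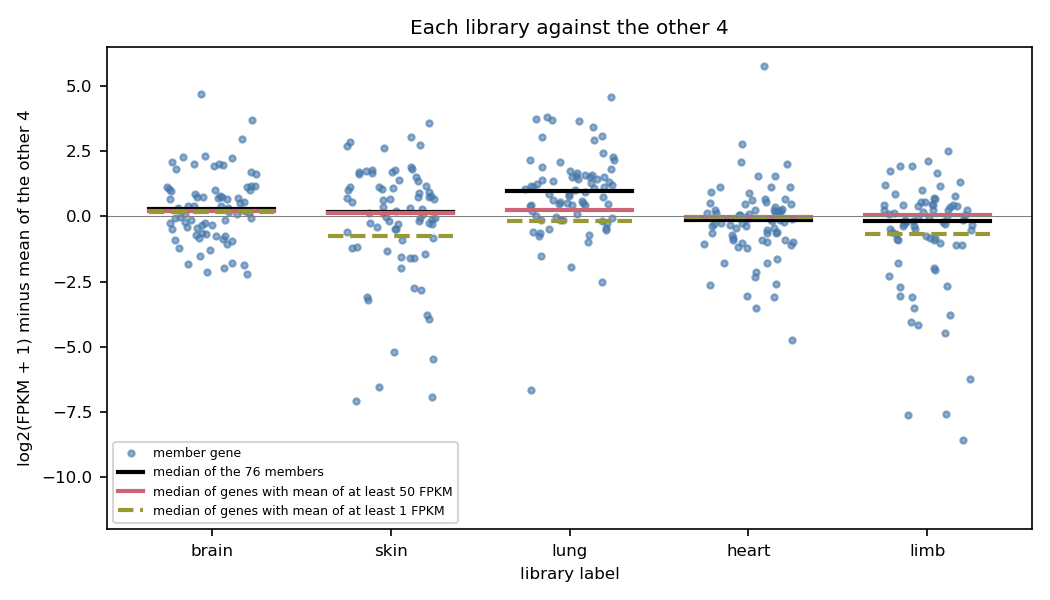
Difference of each of the 76 members in log2(FPKM + 1) from its mean in the other 4 libraries, by library label, 1 point per gene. Lines give the median of the members (black), of genes averaging 50 FPKM or more (red) and of genes averaging 1 FPKM or more (dashed). The lung-labelled library has the black line at 0.97, above both others.

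Pairs of libraries were compared as well, each library serving in 4 pairs. Between the lung- and heart-labelled libraries 60 members were higher under the lung label and 16 under the heart label, with a median log2 ratio of 1.16. By a fold rule (1 added to both values, a minimum of 10 FPKM for the higher and a 4-fold ratio), 14 of 75 members were past it towards lung, beside 23.1% of all genes tested, and 4 towards heart, beside 25%. Between lung and limb, 16 of 73 were past it towards lung (all genes 30.2%) and 3 towards limb (all genes 22.9%). Between skin and lung, 3 of 74 were past it towards skin (all genes 21.4%) and 14 towards lung (all genes 30.3%). Between brain and lung, 5 of 75 were past it towards brain (all genes 25.3%) and 6 towards lung (all genes 20.9%). In these 4 pairs more members crossed the rule towards lung than away from it, by 1 gene in the pair with brain. All genes tilted the same way in the pairs with limb and skin, and the other way in those with heart and brain. Between brain and limb, 15 of 75 were past it towards brain (all genes 28.7%) and 0 towards limb (all genes 17.1%). Between heart and limb, 12 of 73 were past it towards heart (all genes 28.2%) and 5 towards limb (all genes 17.7%). Between skin and limb, 13 of 70 were past it towards skin (all genes 26.2%) and 8 towards limb (all genes 27.4%). Fewer members crossed it towards limb than away from it in each of the 4 pairs with that label. All genes tilted the same way in the pairs with brain, lung and heart, and slightly the other way in the pair with skin. Between brain and skin, 12 of 75 were past it towards brain (all genes 31.2%) and 9 towards skin (all genes 18.3%). Between brain and heart, 11 of 76 were past it towards brain (all genes 19.3%) and 1 towards heart (all genes 17.7%). Between skin and heart, 11 of 74 were past it towards skin (all genes 20.3%) and 10 towards heart (all genes 30.6%). Between the brain and heart labels nearly all were towards brain. In all 10 pairs the share of members past the rule in either direction was lower, at 14.7% to 30.0%, than that of all genes, at 37.0% to 53.6%. The members were also more abundant than most genes, with a median of the mean of 135 FPKM beside 13.9 FPKM over the 8694 genes. At 50 FPKM or more the shares were closer, at 11.1% to 27.4% of members and 11.3% to 25.2% of all genes, the members' share being the lower in 8 pairs and the higher in 2.

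The members were ordered by level in a partly shared way. Spearman's correlation across the 76 genes lay between 0.56 (skin and limb labels) and 0.68 (lung and heart labels) over the 10 pairs. Across 83 cytosolic ribosomal protein genes it lay between 0.88 and 0.94, across 84 nuclear respiratory chain genes between 0.90 and 0.95, and across all 8694 genes between 0.49 and 0.62. At 50 FPKM or more it lay between 0.44 and 0.62 across 63 members and between 0.59 and 0.75 across 2133 genes. These are descriptions across genes, which share transcript lengths and library preparation and are not replicates.

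Single members that stood apart were sought by a stricter rule. With 1 added to every value, enriched meant 4-fold above each other library with a minimum of 10 FPKM in the library itself. Depleted meant 4-fold below each other library with a minimum of 10 FPKM in all of those. The members had 17 such calls in 16 genes, 15 of them depletions, and 10 of the 15 were values listed at 0. In the brain-labelled library 0 of 75 members tested were enriched, beside 7.45% of all genes tested, and 0 of 52 were depleted, beside 2.76%.

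In the skin-labelled library 0 of 64 members were enriched, beside 8.84% of all genes, and 6 of 57 were depleted (10.5%), beside 12.7%. MRPL24, at the mouth of the exit tunnel, was listed at 0 there and at 67.9 FPKM under the brain label, 256 under lung, 93.9 under heart and 203 under limb. MRPL43, a protein found only in mitochondria, was listed at 0 beside 166, 153, 66.5 and 122 FPKM in the same 4 libraries. MRPL38, of the central protuberance, was listed at 0 beside 113, 118, 48.8 and 109 FPKM. All 3 were thus well above 10 FPKM in each other library. MRPL44, which carries a ribonuclease-like fold, was at 3.03 FPKM beside 36.3 to 89.0 FPKM, and MRPS6, on the platform of the small subunit, at 43.8 FPKM beside 199 to 759 FPKM. MRPS35 was listed at 0 beside 10.7 FPKM (brain label), 146 FPKM (lung label), 28.7 FPKM (heart label) and 33.8 FPKM (limb label). The lung-labelled value was 4.32 times the limb-labelled one, which made MRPS35 also the 1 of 71 members enriched in the lung-labelled library, beside 10.2% of all genes, though not after rescaling by the median ratio or with 5 added. Its depletion under the skin label was lost with a minimum of 20 FPKM and with 5 added.

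In the limb-labelled library 0 of 61 members were enriched, beside 7.99% of all genes, and 6 of 59 were depleted (10.2%), beside 11.2%. MRPS18C was listed at 0 there and at 372 FPKM under the brain label, 297 under skin, 899 under lung and 219.6 under heart. MRPL50, found only in mitochondria, was listed at 0 beside 125, 297, 167 and 214 FPKM. MRPS12, which lies at the decoding centre, was listed at 0 beside 58.9, 372, 537 and 127 FPKM. These 3 had the same pattern, at 0 in 1 library and at 58.9 FPKM or more in the rest. MRPS15 was listed at 0 beside 30.1 to 121 FPKM, MRPL28 stood at 8.14 FPKM beside 106 to 226 FPKM, and MRPL55 at 149.8 FPKM beside 605 to 886 FPKM, a call lost with 5 added. Of the 6, 3 belong to the small subunit, and all 3 of those have bacterial counterparts. So do 16 of the 26 small subunit members. Under this label 3 of those 16 were listed at 0, and 3 of the 10 without a counterpart.

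In the lung-labelled library 1 of 54 members was depleted (1.85%), beside 9.19% of all genes. This was MRPL3, a protein near the centre where peptide bonds form, listed at 0 beside 119.7 FPKM under the brain label, 197 FPKM under skin, 57.0 FPKM under heart and 76.8 FPKM under limb. In the heart-labelled library 1 of 71 members was enriched, beside 8.17% of all genes, and 2 of 53 were depleted (3.77%), beside 4.27%. The enriched gene was MRPS30, at 73.1 FPKM there, 2.42 FPKM under the lung label and 0 in the other 3. The depleted genes were MRPS33, at 32.2 FPKM beside 205 to 447 FPKM, and MRPL4, whose product lines the exit tunnel, listed at 0 beside 25.2 FPKM (brain label), 100.2 FPKM (skin label), 12.5 FPKM (lung label) and 14.0 FPKM (limb label). The MRPL4 call was lost with a minimum of 20 FPKM and with 5 added in place of 1. Against all genes tested, many of them of lower level for enrichment, the members' shares were lower in each library and direction. Most genes tested for depletion averaged 50 FPKM or more, such as 1624 of 1923 (brain label) and 1708 of 2119 (limb label). Against genes of like level the picture was mixed. Among the 63 members averaging 50 FPKM or more, 5 of 54 tested were depleted under the skin label (9.26%), beside 7.54% of all genes at that level, and 6 of 56 under the limb label (10.7%), beside 6.09%. Under the other labels the shares depleted were 0 of 50 (brain), beside 1.66%, 1 of 51 (lung, 1.96%), beside 5.13%, and 1 of 50 (heart, 2%), beside 2.62%. None of these 63 members was enriched in any library, beside 0.30% (heart label) to 0.99% (skin label) of all genes at that level. The counts are small, and no difference between these shares was tested.

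**Figure D5:**
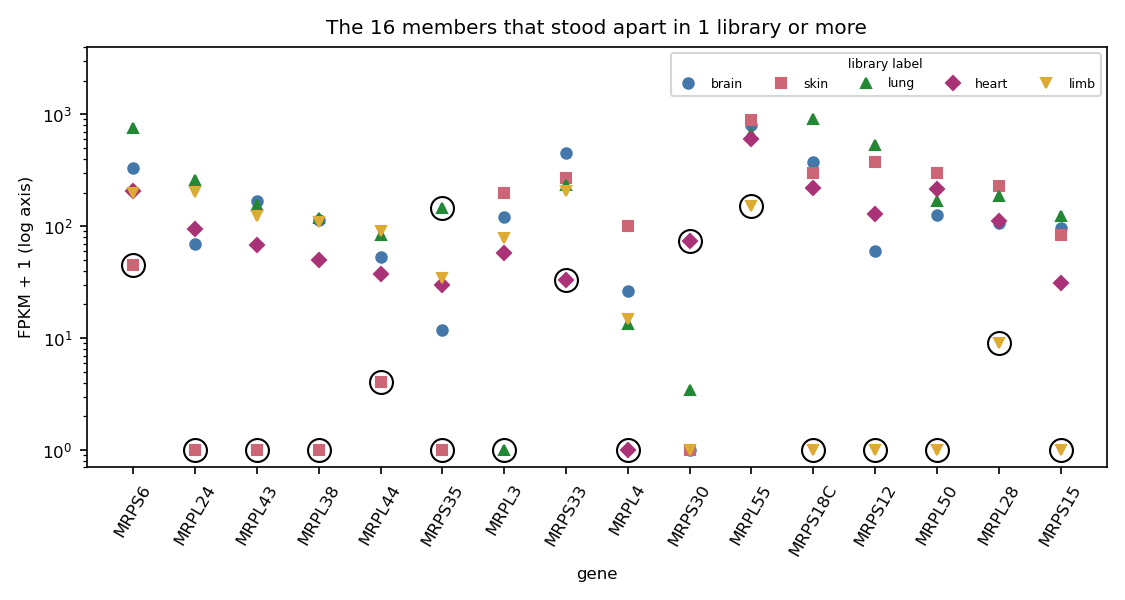
FPKM + 1 (log axis) in each of the 5 libraries for the 16 members that were enriched or depleted somewhere, with a ring around each of the 17 values called. Points at 1 are values listed at 0, which account for 10 of the 15 depletions.

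Members listed at 0 in several libraries were few. MRPS30 was above 0 in 2 libraries, and so was MRPL49, at 74.5 FPKM under the brain label and 68.7 FPKM under the lung label. MRPS22 was above 0 in 3 libraries, at 53.2 FPKM (brain label), 31.3 FPKM (skin label) and 8.61 FPKM (lung label). MRPS34 was above 0 in 3, at 21.0 FPKM (brain label), 63.2 FPKM (lung label) and 23.8 FPKM (heart label). In the 4 genes the brain- and lung-labelled libraries, which had the fewest members at 0, supplied 7 of the 10 values above 0. This follows from those low counts of 0 and is no further pattern. MRPS31 was listed at 0 under the limb label, at 1.04 FPKM under skin and at 33.6 to 60.8 FPKM elsewhere, and MRPS27 at 0 under the skin label, at 9.56 FPKM under heart and at 42.4 to 113 FPKM elsewhere. A ribosome needs these proteins, and a value of 0 here says only that no level was listed at the depth of that library.

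The genes of single sites of the ribosome did not share 1 pattern. In the factor-binding stalk, MRPL12, the mobile protein that recruits translation factors, stood at 214 FPKM under the brain label, 194 under skin, 203 under lung, 45.4 under heart and 78.4 under limb, so the heart and limb labels were low. MRPL11 at the stalk base differed less, from 29.9 to 68.5 FPKM. MRPL10, which tethers MRPL12, was low throughout, at 17.6, 3.72, 3.16, 11.8 and 0 FPKM under the same labels, and values this low were not ordered. Of the 7 exit tunnel genes 5 had their highest value under the lung label, among them MRPL22 at 418 FPKM beside 164 to 215 FPKM and MRPL47 at 262 FPKM beside 39.3 to 167 FPKM. Of the 8 central protuberance genes 4 were highest under the skin label and 3 under the lung label. MRPL18 there ranged from 43.2 FPKM (heart label) to 501 FPKM (skin label) and MRPL58, a peptidyl-tRNA hydrolase built into the ribosome, from 38.5 FPKM (heart label) to 421 FPKM (skin label).

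Cattle, like other mammals, have 3 genes related to bacterial protein S18, and their products occupy different places, only that of MRPS18C being the bacterial one. MRPS18A, in the large subunit, stood at 75.9 FPKM under the brain label, 319 under skin, 153 under lung, 202 under heart and 225 under limb. MRPS18B, of the small subunit, had 87.3, 159, 135, 119 and 56.8 FPKM in the same order. MRPS18C, also of the small subunit, peaked under the lung label and was listed at 0 under the limb label, as given above. MRPS18A and MRPS18B were thus highest under the skin label and MRPS18C under the lung label. Related copies can share reads, and the sources used here do not say how such reads were assigned.

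Genes that lie side by side on a chromosome were compared where the RefSeq gene order of a later cattle assembly placed them next to a member. All 76 symbols matched 1 protein-coding gene there. MRPL46 and MRPS11 were the only adjacent pair of members, a large and a small subunit gene. MRPL46 stood at 41.2, 21.1, 57.5, 37.7 and 8.06 FPKM and MRPS11 at 42.0, 318, 109, 97.8 and 162 FPKM under brain, skin, lung, heart and limb, so they were level under the brain label and 20.1-fold apart under the limb label. MRPS12 lies next to SARS2, the mitochondrial seryl-tRNA synthetase, which was listed at 16.9 FPKM under the lung label, where MRPS12 was highest, at 4.85 FPKM under the heart label and at 0 elsewhere. MRPL43 lies next to TWNK, the helicase of mitochondrial DNA, which was above 0 only under the lung label (37.5 FPKM). MRPL49 lies next to FAU, which encodes a cytosolic ribosomal protein and stood at 2398 to 6348 FPKM, while MRPL49 was listed at 0 in 3 libraries. MRPL47 lies next to NDUFB5 of respiratory complex I (193 to 432 FPKM), and MRPL58 next to ATP5PD of the ATP synthase (400 to 566 FPKM). Both neighbours varied less between libraries than the member beside them. The sources used here do not say whether counting used strand, so reads of overlapping neighbours cannot be told apart.

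The remaining genes of mitochondrial translation were taken from hand-written lists. Of 5 mitochondrial ribosomal proteins under other symbols, CHCHD1 stood at 204 to 487 FPKM and AURKAIP1 at 136 to 427 FPKM. GADD45GIP1, in the large subunit, was depleted in the limb-labelled library, at 8.09 FPKM beside 40.3 to 138 FPKM. It was the 1 call among 11 values tested for depletion in this list (9.09%), beside 8.19% for all genes. PTCD3, at the entry of the messenger RNA, was listed at 0 under the lung and limb labels, and DAP3, a GTP-binding protein of the small subunit head, under the skin and limb labels.

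Of 15 translation factors, 0 were enriched and 2 depleted. Over the 5 libraries this was 0 of 40 values tested for enrichment, beside 8.52% for all genes, and 2 of 22 tested for depletion (9.09%), beside 8.19%. SLIRP, which stabilises mitochondrial messenger RNAs, was the most abundant and nearly level, at 1344 FPKM under the brain label, 1645 under skin, 1603 under lung, 1613 under heart and 1452 under limb. TUFM, the elongation factor that brings aminoacyl-tRNA, stood at 230.4 FPKM under the skin label and 55.4 to 73.0 FPKM elsewhere. TSFM, which recharges TUFM, was listed at 0 under the limb label beside 59.5 to 206 FPKM, and the recycling factor MRRF at 0 under the lung label beside 27.0 to 121 FPKM. The factors' summed level differed 1.24-fold between libraries, with SLIRP as its main part, beside 1.98-fold for the members. Assembly factors differed 1.87-fold, tRNA-charging genes 2.95-fold and genes of mitochondrial DNA expression 2.55-fold.

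Of 25 genes of ribosome assembly and ribosomal RNA modification, 0 were enriched and 2 depleted. Over the 5 libraries 0 of 73 values tested were enriched, beside 8.52% for all genes. For depletion it was 2 of 37 (5.41%), beside 8.19%. ERAL1, a chaperone of the small ribosomal RNA, was at 2.46 FPKM under the brain label beside 20.4 to 44.4 FPKM. MALSU1, a large subunit assembly factor, was listed at 0 under the heart label beside 19.6 to 48.5 FPKM. The most abundant were C1QBP (a matrix protein, 276 to 614 FPKM), the endonuclease-like YBEY (61.7 to 107 FPKM) and MPV17L2 (13.4 to 124 FPKM).

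Genes that charge mitochondrial tRNAs with amino acids were low and often listed at 0. Of 20 genes, 14 were above 0 somewhere and 1, IARS2, in all 5 libraries, at 7.93 to 38.2 FPKM. This list had 4 enrichments (WARS2 under brain, HARS2 and QRSL1 under lung, TARS2 under heart) and 3 depletions (CARS2 under brain, FARS2 under lung, GATC under limb). Over the 5 libraries these were 4 of 23 values tested for enrichment (17.4%), beside 8.52% for all genes, and 3 of 4 tested for depletion, beside 8.19%. Each of the 3 depleted genes was listed at 0 in that library and could be tested for depletion nowhere else. A value of 0 that can be tested is always called, so this share cannot be read against that of all genes. Of 9 genes that copy and transcribe mitochondrial DNA, POLRMT, the mitochondrial RNA polymerase, at 11.6 FPKM, and TWNK were enriched in the lung-labelled library and 0 were depleted. That was 2 of 19 values tested for enrichment (10.5%) and 0 of 15 for depletion. SSBP1, which coats single-stranded mitochondrial DNA, was the most abundant of them, at 477 FPKM under the skin label, 306 FPKM under lung and 127 to 156 FPKM elsewhere. None of the 13 mitochondrially encoded protein genes was enriched or depleted in any library (65 values tested each way), and their highest values were at most 3.57 times their lowest.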

How the data were processed

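The deposited table has 27607 genes in rows and the 5 libraries in columns, and the authors name no unit. Its values were taken as FPKM by elimination, since 99.0% of the deposited values above 0 were not whole numbers and each library summed to more than the fixed total of TPM. Per the submitters' processing notes, bcl2fastq, STAR (alignment), RSEM (estimation of expression) and the ARS-UCD1.2 genome build were used. For versions, annotation release and filters nothing is stated there.

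Each column was matched to its library by the sample title. No count model was used, since whole reads were not at hand. Log2 values were taken after adding 1, which understates ratios of low genes, and no ratio was formed against 0 except after adding 1. The rules of size and the medians were computed over the whole table with Python 3.11.15, pandas 2.3.3 and SciPy 1.17.1, and only the members' results are printed. The computation of the rules was checked on simulated data with planted changes and without noise or values of 0. That check does not measure how often the rules err in these libraries. Members, lists and rules were chosen with earlier results of these data known.

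Named genes were the members enriched or depleted, the 8 highest and 8 lowest by mean, the 8 with the smallest and 8 with the largest SD among those above 0 in all 5, and genes of the site lists. In the pathway lists they were mainly the 3 highest by mean and those called. The neighbour genes, MRPS36, the marker genes, and members above 0 in 3 libraries or fewer were chosen after values were seen.

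Depth is known only roughly. Between 2 and 200 FPKM, 275 of 3554 ratios of the brain- to the heart-labelled value lay within 0.3% of ratios of whole numbers up to 4 at the best offset, beside a median of 60 at other offsets, which puts the heart-labelled depth at 81.0% of the brain-labelled. Of 48 members in that range only 1 lay on such a ratio, so no reads were recovered for the members. RefSeq genes of the ARS-UCD2.0 assembly were used for names and gene order. Levels against protein length and promoter motifs were planned and not run, because the sequences they need were not used here.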

Additional observations from a re-analysis of the deposited data

How the results depend on the processing

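With no replicates, a count or sum was held to have moved beyond 1.5 times and a median beyond 0.2 on the log2 scale or across 0. No paired analysis was possible because each label has 1 library and no test was run. Of 221 recomputed single-gene calls (17 calls under 13 alternatives) 214 were kept and 7 lost: MRPL4 (heart label) and MRPS35 (skin label) with a minimum of 20 FPKM and with 5 added, MRPL55 with 5 added, and MRPS35 (lung label) with 5 added and after rescaling by the median ratio. Only a minimum of 20 FPKM, 5 added and the rescalings could lose a call. The other alternatives loosened the rule, so a call was bound to be kept under them. The remaining 13 calls were lost under no alternative that could lose one.

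Counts of depleted members rose from 0, 6, 1, 2 and 6 (brain, skin, lung, heart, limb) to 7, 12, 4, 9 and 15 with the mean of the other 4 as reference. With a ratio of 2 they were 2 (brain), 2 (lung) and 6 (heart), and with a ratio of 3 they were 2 (lung) and 4 (heart). The heart-labelled count was 1 with a minimum of 20 FPKM or with 5 added, and 5 without the limb label. Without the skin label the lung-labelled count was 2 and the limb-labelled 10. Counts of enriched members, 0, 0, 1, 1 and 0, became 2 (brain), 2 (skin) and 5 (lung) against the mean of the others. With a ratio of 2 they were 1 (brain), 4 (skin), 9 (lung) and 2 (limb), and with a ratio of 3 there was 1 (skin). The brain-labelled count was 1 without the skin or the lung label, the skin-labelled 1 without the brain, lung or limb label, and the lung-labelled 2 without the brain or skin label and 0 with 5 added or after rescaling. These are counts of members only. Alternatives that loosen the rule could only keep or raise them. The share of all genes called was not computed under the alternatives. Whether the members' counts moved more or less than those of all genes is therefore not known.

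The skin-labelled median difference was 0.54 over members with a mean of at least 50 FPKM and 0.40 without the lung label. The heart-labelled median was -0.40 against the median of the others, -0.35 without the skin label, -0.37 without the limb label and 0.020 after rescaling. The limb-labelled median was -0.39 without the heart label. The median SD and the summed levels stayed within 1.5 times. Without MRPS18C, MRPS6, MRPS12 and MRPS14, an alternative added after seeing the data, the large to small subunit ratio rose from 2.01 to 3.64 under the lung label and by less than 1.5 times elsewhere. Those genes were chosen by their lung-labelled values, so the larger rise there was built in. With MRPS18A and MRPS18B classed with bacterial counterparts, also added after seeing the data, the median of the mean over small subunit genes found only in mitochondria fell from 79.5 to 47.6 FPKM, and the other 3 class medians moved by less than 1.5 times. Rescaling shifted libraries by -0.06 (heart label) to 0.14 (lung label) on the log2 scale. Where 1 read is worth several FPKM, members under about 10 FPKM and those listed at 0 cannot be ordered.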
